A study of Homo sapiens with 6 samples.

Results

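The cytosolic ribosomal proteins are the protein part of the ribosomes that translate nuclear-encoded mRNAs, and their transcripts were examined in NCI-H660 cells with and without pyrvinium pamoate (PP). Members were chosen by symbol: RPL or RPS followed by a number and at most a short suffix, the stalk proteins RPLP0 to RPLP2, and RPSA, leaving out 3 ribosomal-like symbols that end in L1. This gave 80 of the 17177 genes in the table, 48 of the large subunit and 32 of the small subunit. NCI-H660 is an established human cell line derived from neuroendocrine prostate cancer (NEPC), and the cells carried the WT genotype by their labels. The 2 groups were cells given PBS and cells given PP, each with 3 libraries collected on day 3, and the concentration of PP for these cells was not found in the sources used here. A single cell line was profiled as bulk RNA, so fewer cells of a kind and less RNA per cell cannot be told apart. The FPKM values give each gene relative to its own library, so a change in the total amount of mRNA per cell would not be seen in them.

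Counts recovered from the FPKM values summed to between 29064253 and 32481171 in a library. Of 8 neuroendocrine markers 7 had a mean FPKM of at least 1, and their summed FPKM was 785 to 792 in the PBS libraries and 385 to 403 in the PP libraries. All 4 epithelial markers were above that level, and so was 1 of 6 markers of other cell types (COL1A1). None of the androgen receptor axis markers in the table was. Whether the lower neuroendocrine sum plays a part in any ribosomal protein value was not tested.

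Each ribosome holds a single copy of most ribosomal proteins, and the subunits are assembled in the nucleolus with the ribosomal RNAs before export. Most ribosomal protein mRNAs begin with a C followed by an unbroken run of pyrimidines, the 5′ terminal oligopyrimidine (TOP) motif. Through this motif mTOR and the RNA-binding protein LARP1 adjust their translation and stability together, and MYC is a known activator of their transcription. Several free ribosomal proteins, RPL5 and RPL11 among them, also bind MDM2 when assembly fails.

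The annotated start sites show the motif that most of these genes share. A start was counted as TOP when its first base was C and at least the next 4 bases were C or T. A run that begins just after the annotated start, as in RPL10A and RPS28, was not counted. A member without a counted start is therefore not shown to lack the motif. Of the 63 members with an entry in the RefSeq promoter windows, 46 had such a start (73.0%), against 5.14% of all 27305 genes with an entry and 7.18% of the other genes tested. The share was 73.7% in the large subunit and 72% in the small subunit. The following windows of 20 bases (GRCh38.p14, RefSeq), 5 before the start and 15 from it, belong to members that carry the results below. The pyrimidine run from the first base is in capitals, and the last 2 entries have no such run at their annotated start.
RPL12 (chr9:127451392-127451411, minus strand): tccggCCTCTCggctttcgg
RPL13A (chr19:49487603-49487622, plus strand): tcctcCTTTTCCaagcggct
RPS12 (chr6:132814564-132814583, plus strand): gaggcCTCTTTCCCTgccgc
RPL7A (chr9:133348213-133348232, plus strand): ctttcCTTTCTCTCTCCTCC
RPL39 (chrX:119791616-119791635, minus strand): agcttCCCTCCTCTTCCTTT
RPS9 (chr19:54200853-54200872, plus strand): cgcgcCTCTTTCTCagtgac
RPS15 (chr19:1438391-1438410, plus strand): cggaccaaagcgatctcttc
RPS28 (chr19:8321491-8321510, plus strand): acgtgactcctctccgccag
RPL12, RPL13A and RPS12 were higher in PP and RPL7A, RPL39 and RPS9 were lower, so the same kind of start stood at both ends of the range.

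With PP, transcripts of ribosomal proteins moved by small amounts and in both directions, more often up than down. Of the 80 members 77 had a mean FPKM of at least 1 and were tested, 45 of the large and 32 of the small subunit. At an adjusted p under 0.05, 37 were higher in PP (48.1%) and 16 were lower (20.8%), where 38.1% and 34.4% of all 11726 genes tested were called higher and lower. The PP libraries all lay above the PBS libraries for 36 members and all below for 13, against 39.5% and 35.5% of all genes tested (75% in either direction). The median log2 fold change of the members was 0.07, beside 0.02 over all genes tested. The range was narrow: 1 member, RPL12, changed by more than 0.5 in either direction, while 23.8% of all genes tested did. The study's cutoff, read as an unadjusted P under 0.001 together with an absolute log2 change over 1, was passed by no member, and by 2.24% of all genes upward and 2.93% downward. Over 16 alternative settings, 29 of the 37 higher and 7 of the 16 lower calls were kept in every one.

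**Figure D1:**
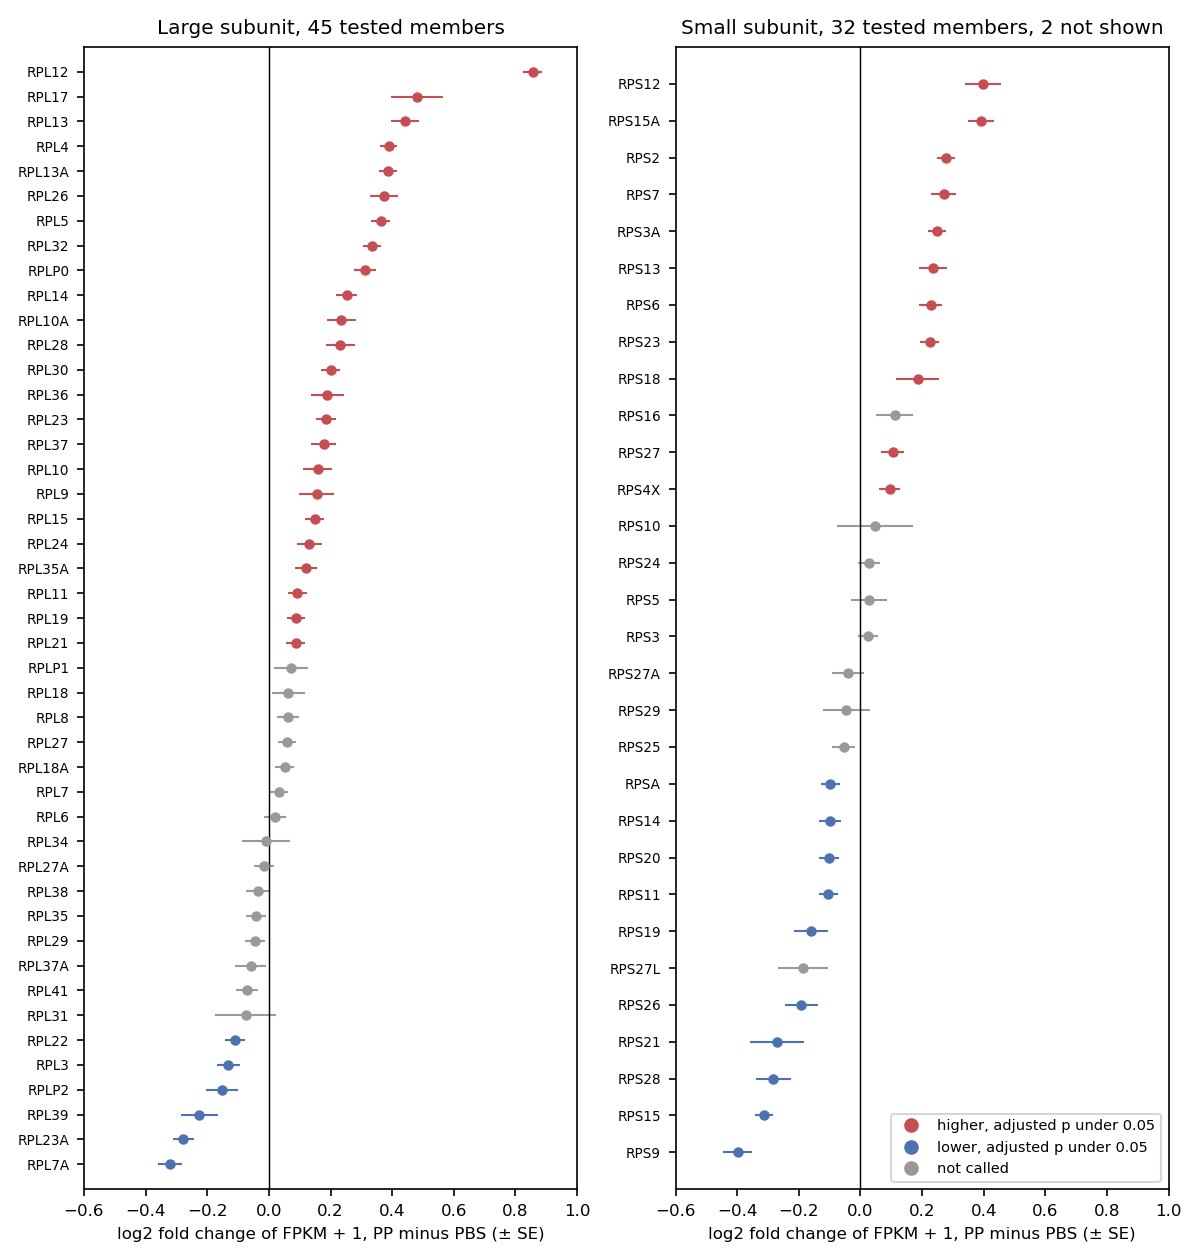
Fitted log2 fold change of FPKM + 1 (PP minus PBS, horizontal axis) of each tested member, large subunit at left and small subunit at right, with bars of 1 SE. Red and blue points were called higher and lower, and grey points were not called. RPL12 stands alone at 0.86 and RPS9 is lowest at -0.40. Of the small subunit, 2 tested members are not shown.

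The large subunit leaned upward and the small subunit was more evenly divided. Of the large subunit members 24 were higher (53.3%), 6 were lower (13.3%) and 15 were not called, with a median log2 fold change of 0.09. Of the small subunit members 13 were higher (40.6%), 10 were lower (31.25%) and 9 were not called, with a median of 0.03. The small subunit thus lay near all genes tested, of which 38.1% were higher and 34.4% lower, with a median of 0.02. The difference between the subunits was not tested. Without PBS library 3, 5 small subunit members were lower, beside 32.2% of all genes, and the median was 0.053. Without PBS library 2 the median was 0.015. The split also depended on the scaling: when the libraries were set to an equal FPKM sum over the genes that are not members, 30 large subunit members were higher and 3 lower, and 16 small subunit members were higher and 5 lower, beside 43.4% and 29.8% of all genes. With median-ratio size factors the small subunit had 11 members in each direction, beside 36.7% higher and 35.6% lower of all genes.

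The members took a larger share of each PP library. Their FPKM made up 7.45, 7.54 and 7.64% of all FPKM in PBS libraries 1, 2 and 3 and 8.53, 8.34 and 8.21% in PP libraries 1, 2 and 3. The groups did not overlap, with means of 7.55% ± 0.095 (SD, n = 3) and 8.36% ± 0.16 (SD, n = 3). The large subunit went from 4.55% ± 0.055 to 5.05% ± 0.090 (SD, n = 3 each) and the small subunit from 3.001% ± 0.048 to 3.31% ± 0.072 (SD, n = 3 each). The summed FPKM itself was 1.07-fold higher, and the FPKM of the other genes summed to less in PP, at 0.972 to 0.981 of the mean of all 6 libraries against 1.02 in each PBS library. By recovered counts, in which short transcripts weigh less, the share went from 2.55% ± 0.027 to 2.74% ± 0.059 (SD, n = 3 each).

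**Figure D2:**
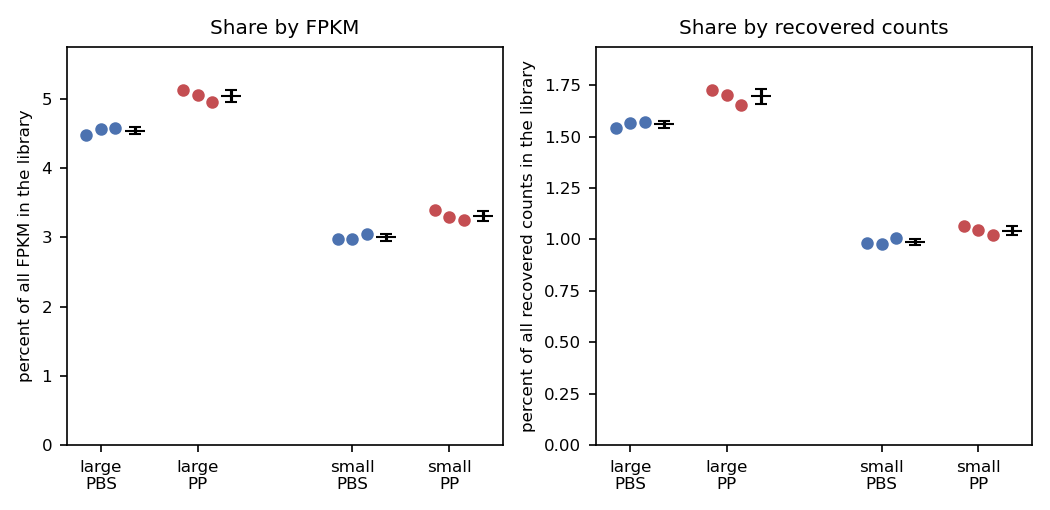
Share of each library taken by the ribosomal proteins, as percent of all FPKM (left) and of all recovered counts (right). Each point is a library, and the black marks are the mean ± SD of 3 libraries. The PP points lie above the PBS points for both subunits on both scales.

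RPL12, which sits at the base of the stalk that recruits translation factors with GTPase activity, had the highest log2 fold change of the members. Its FPKM was 425, 439 and 437 in the PBS libraries and 779, 811 and 769 in the PP libraries. The lowest PP library was far above the highest PBS library, and the log2 fold change was 0.86 ± 0.031 (SE, n = 3 per group, adjusted p = 5.04e-09), or 1.81-fold. The other stalk proteins differed in direction. RPLP0, the stalk scaffold, had FPKM of 530, 543 and 552 with PBS and 694, 680 and 643 with PP, a log2 fold change of 0.31 ± 0.035 (SE, adjusted p = 1.85e-05). RPLP2, which pairs with RPLP1 to form the stalk arms, had 478, 495 and 535 with PBS and 483, 448 and 426 with PP. These ranges overlapped and the call (log2 fold change -0.15, adjusted p = 0.0234) was lost under 7 of the alternatives. RPLP1 was not called (0.07 ± 0.056, SE, adjusted p = 0.267).

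RPL5 and RPL11 carry the smallest large-subunit rRNA into the ribosome and were both higher. RPL5 had FPKM of 355, 342 and 352 with PBS and 445, 462 and 442 with PP, all above. Its log2 fold change was 0.36 ± 0.031 (SE, adjusted p = 2.39e-06). RPL11 had 220, 222 and 216 with PBS and 231, 240 and 232 with PP, also without overlap but a smaller step of 0.09 ± 0.030 (SE, adjusted p = 0.0176), and its call was lost under 4 alternatives.

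Of the 8 proteins that line or surround the tunnel through which the new peptide leaves, 4 were higher, 2 were lower and 2 were not called. These shares, 50% and 25%, lay near the 48.1% and 20.8% of all members tested, beside 38.1% and 34.4% of all genes. RPL4, which reaches into the tunnel wall, had FPKM of 211, 215 and 212 with PBS and 279, 277 and 280 with PP. The libraries of each group lay close together, and the log2 fold change was 0.39 ± 0.028 (SE, adjusted p = 6.43e-07). RPL26, at the tunnel rim, had 215, 220 and 204 with PBS and 258, 286 and 284 with PP, a log2 fold change of 0.37 ± 0.045 (SE, adjusted p = 3.56e-05). RPL17 was low, at 9.29, 9.3 and 11.5 with PBS and 15.7, 14.3 and 13.1 with PP (0.48 ± 0.085, SE, adjusted p = 0.000508). Since 32.9% of its exonic bases are shared with other genes, the readthrough gene RPL17-C18orf32 among them, reads could be split between them and its level is uncertain. The proteins near the exit that were lower were RPL23A and RPL39. RPL23A, a docking site for factors that meet the new peptide, had 508, 517 and 503 with PBS and 400, 430 and 430 with PP, and fell by 0.28 on the log2 scale (SE 0.035, adjusted p = 4.36e-05). RPL39, a very short protein inside the tunnel, had 360, 385 and 413 with PBS and 358, 320 and 311 with PP, and PP library 1 lay just under the lowest PBS library (log2 fold change -0.23 ± 0.060, SE, adjusted p = 0.00617).

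Among the other large subunit proteins, RPL13 and RPL13A stood near the top and RPL7A at the bottom. RPL13 had FPKM of 41.4, 42.3 and 42.3 with PBS and 61.1, 56.8 and 54.4 with PP (0.44 ± 0.045, SE, adjusted p = 8.94e-06). RPL13A, which is also known as a translational silencer outside the ribosome, had 386, 389 and 380 with PBS and 509, 509 and 493 with PP (0.39 ± 0.028, SE, adjusted p = 8.24e-07). RPL7A had 608, 637 and 651 with PBS and 524, 512 and 481 with PP, without overlap, and fell by 0.32 on the log2 scale (SE 0.039, adjusted p = 3.51e-05). RPL3, which lies near the site of peptide bond formation, had 382, 386 and 393 with PBS and 369, 354 and 338 with PP (-0.13 ± 0.036, SE, adjusted p = 0.00747), and its call was lost with the equal sum over other genes (-0.067, adjusted p = 0.0931).

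**Figure D3:**
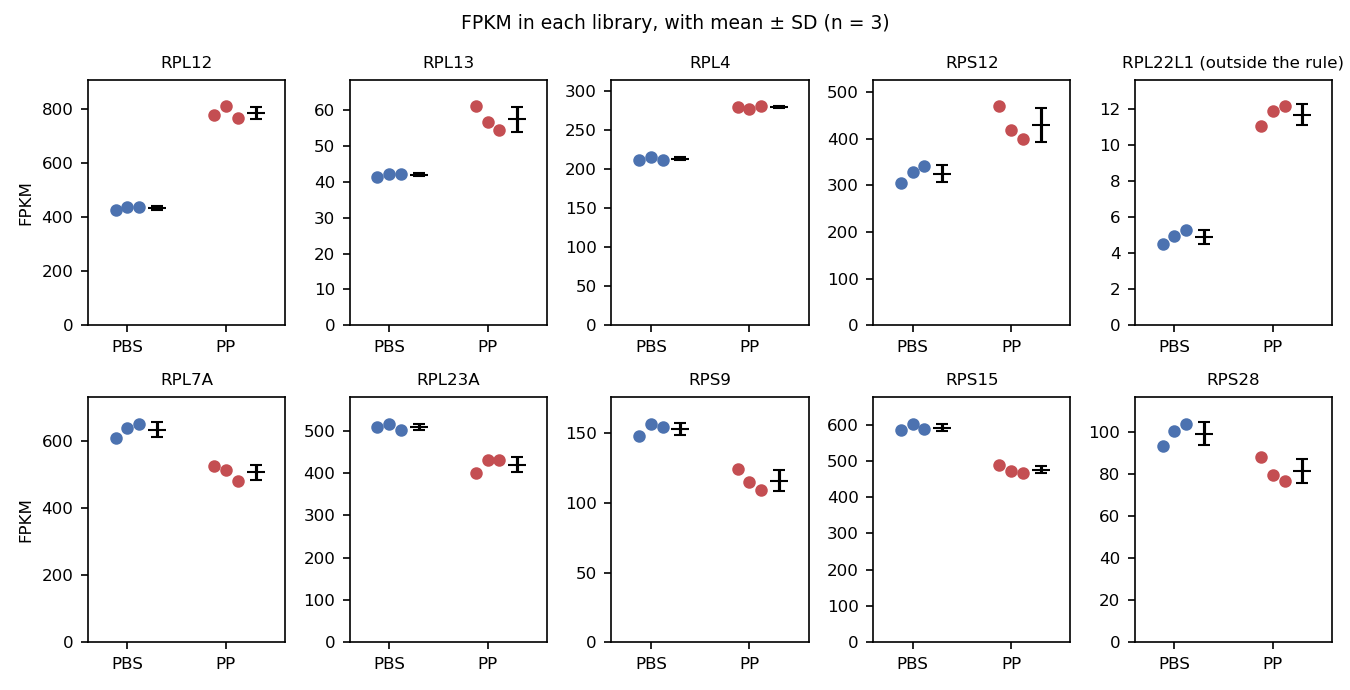
FPKM (vertical axes from 0) in each library of members that were higher (top row) or lower (bottom row) in PP, with RPL22L1, which the symbol rule left out, at the right of the top row. Points are libraries, and black marks are the mean ± SD of 3 libraries. In every panel the PBS and PP points are separate.

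In the small subunit, RPS12 and RPS15A were among the members with the highest log2 fold changes. RPS12 had FPKM of 306, 328 and 342 with PBS and 470, 419 and 399 with PP, a wider spread but no overlap (0.40 ± 0.059, SE, adjusted p = 0.000151). RPS15A had 84.1, 91 and 91.3 with PBS and 120, 117 and 113 with PP (0.39 ± 0.041, SE, adjusted p = 1.10e-05). RPS6, the substrate of S6 kinase, had 469, 425 and 451 with PBS and 531, 527 and 517 with PP (0.23 ± 0.038, SE, adjusted p = 0.000301).

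RPS9, which with RPS2 and RPS3 lines the mRNA entry, was the lowest small subunit member by log2 fold change. Its FPKM was 148, 157 and 154 with PBS and 124, 115 and 109 with PP, and it fell by 0.40 on the log2 scale (SE 0.047, adjusted p = 2.79e-05). Of 7 other proteins listed for the mRNA path and decoding region, a list that does not hold RPS9, 2 were higher, 4 were lower (RPS15, RPS28, RPS26 and RPS14) and 1 was not called, with a median log2 fold change of -0.10. The shares were 28.6% and 57.1%, beside 38.1% and 34.4% of all genes tested and 40.6% and 31.25% of the small subunit members. The difference of this list from the small subunit members was not tested. RPS15, whose tail reaches the decoding region, had 585, 603 and 587 with PBS and 488, 472 and 468 with PP, well apart (-0.31 ± 0.030, SE, adjusted p = 5.23e-06). RPS28, near the mRNA exit, had 93.2, 100 and 104 with PBS and 88, 79.3 and 76.8 with PP (-0.28 ± 0.056, SE, adjusted p = 0.00103). RPS26, which contacts mRNA upstream of the start codon, had 167, 150 and 158 with PBS and 129, 146 and 141 with PP (-0.19 ± 0.053, SE, adjusted p = 0.00779). RPS14 was lower by a call that 8 alternatives lost (-0.10, adjusted p = 0.0332). In the other direction, RPS2 had 814, 811 and 788 with PBS and 988, 985 and 953 with PP (0.28 ± 0.029, SE, adjusted p = 1.13e-05), and RPS23 rose by 0.22 ± 0.031 (SE, adjusted p = 9.01e-05). RPS3 was not called (0.03, adjusted p = 0.492).

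RPS21 was called lower although its libraries overlapped, at 109, 117 and 131 with PBS and 112, 98.4 and 86 with PP (-0.27 ± 0.088, SE, adjusted p = 0.0183, lost under 3 alternatives). RPSA, also known as a laminin receptor, had 454, 466 and 472 with PBS and 447, 427 and 426 with PP (-0.10 ± 0.032, SE, adjusted p = 0.0174), a call that 7 alternatives lost. RPS27A, made as a fusion with ubiquitin, was not called, with 159, 167 and 173 with PBS and 176, 155 and 155 with PP.

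Lists defined by disease or by binding partner cut across both subunits. Of 18 genes mutated in Diamond-Blackfan anaemia, 9 were higher (RPS15A, RPL26, RPL5 and RPS7 among them), 3 were lower (RPS19, RPS26 and RPS28) and 6 were not called, with a median log2 fold change of 0.08. These shares, 50% higher and 16.7% lower, lay near the 48.1% and 20.8% of all members tested. The RPS19 libraries overlapped and its call was lost under 6 alternatives. Of 15 proteins known to bind MDM2, 7 were higher (46.7%), 4 were lower (26.7%) and 4 were not called, with a median of 0.03. Among all genes tested 38.1% were higher and 34.4% lower. Differences of these 2 lists from the other members were not tested.

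Levels were compared per length, as FPKM. By the deposited FPKM, the highest members were RPL8, with a PBS mean of 1454 ± 30.8 (SD, n = 3), RPL30 (1238 ± 29.3) and RPL41 (957 ± 21.4) in the large subunit, and RPS2 (804 ± 14.6) and RPS18 (709 ± 51.6) in the small subunit. Each step down this order was wider than the SDs of its neighbours. The lowest tested were RPS10, with 2.31, 1.95 and 2.64 with PBS and 2.33, 1.89 and 3.07 with PP, and RPS27L (3.42 ± 0.292 with PBS). RPS10 rested on 47 to 83 counts per library, and it shares 31.5% of its exonic bases with the readthrough gene RPS10-NUDT3. Across the 77 members a lower log2 FPKM went with a longer gene length behind the FPKM (Pearson's r = -0.62, Spearman's rho = -0.69, over genes of the same libraries). Over all genes tested r was -0.33 and rho -0.30. FPKM is itself divided by this length, so a negative correlation is partly built into the measure. RPS29, for example, was divided by 7539 bases where its canonical transcript has 295, and its PBS level of 9.30 FPKM would be 238 per kilobase of that transcript. The order turned over on that scale, where RPS24 (1718, against 321 FPKM) and RPS20 (1537, against 410.2 FPKM) came before RPL8 (1466) and RPL30 (1249). Many members also have processed pseudogenes, up to 133 named after RPL21, and how reads shared with these were counted is not given in the sources used here. A gene's length is the same in every library and drops out of a plain ratio of FPKM between groups. It does not drop out fully from the filter or from fold changes of log2(FPKM + 1) in genes of low FPKM. RPS27L was at -0.19 in the fit and -0.25 with limma-voom on recovered counts.

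In the RPL22 pair the paralog rose and the canonical member was slightly lower. RPL22 had FPKM of 170, 165 and 161 with PBS and 152, 154 and 153 with PP (-0.11 ± 0.032, SE, adjusted p = 0.0101), a call that was lost with the equal sum over other genes (-0.046, adjusted p = 0.203). Its paralog RPL22L1, left out by the symbol rule, had 4.5, 4.97 and 5.28 with PBS and 11, 11.9 and 12.2 with PP (1.10 ± 0.063, SE, adjusted p = 1.28e-07). RPL22L1 thereby made up 2.89% ± 0.30 of the pair's FPKM with PBS and 7.10% ± 0.31 with PP (SD, n = 3 each). In the RPL26 pair the paralog RPL26L1 took 7.62% ± 0.068 with PBS and 5.58% ± 1.13 with PP (SD, n = 3 each), RPL26 being higher and RPL26L1 not called (adjusted p = 0.229). RPL7L1 took 11.2% ± 0.094 and 10.2% ± 0.41 of its pair, and RPS27L 0.574% ± 0.078 and 0.450% ± 0.057 (SD, n = 3 each).

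The remaining paralogs were near 0 or held nearly all of their pair's FPKM. RPL39L was at 0 in all 3 PBS libraries and in PP library 1 and reached 0.0454 FPKM at most, and RPL3L reached at most 0.0128 FPKM. RPL36A was also under the filter, at 1.02, 0.359 and 0.0421 with PBS and 0.513, 0.13 and 0.642 with PP, and 8.4% of its exonic bases are shared with the readthrough gene RPL36A-HNRNPH2. It rested on 1 to 24 counts per library, and 52 pseudogenes are named after it, so its level is uncertain. Its paralog RPL36AL held 99.7% ± 0.31 of the pair with PBS (SD, n = 3) and was higher in PP (160, 153 and 157 against 198, 186 and 194 FPKM, 0.30 ± 0.035, SE, adjusted p = 2.65e-05). RPL10L was not analysed here.

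Ribosomal proteins whose symbols lie outside the rule were divided too. FAU, a fusion that carries a small subunit protein, had FPKM of 223, 243 and 244 with PBS and 227, 196 and 196 with PP (-0.20 ± 0.059, SE, adjusted p = 0.0112). The FAU libraries overlapped, PP library 1 lying above PBS library 1. RACK1, a signalling scaffold on the head of the small subunit, had 569, 566 and 578 with PBS and 696, 696 and 643 with PP (0.25 ± 0.036, SE, adjusted p = 0.000117).

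Members with and without a TOP start at their annotated sites moved in both directions. Of the 45 tested members with a TOP start 20 were higher (44.4%) and 9 lower (20%), with a median log2 fold change of 0.06. Of the 17 with an entry but no TOP start 9 were higher (52.9%) and 4 lower (23.5%, median 0.09). Of the 15 with no entry 8 were higher (53.3%) and 3 lower (20%, median 0.18). Of 18 tested genes for translation factors and other non-ribosomal TOP mRNAs, 12 were higher (66.7%) and 1 was lower (5.56%), with a median of 0.18. The difference from the ribosomal proteins was not tested. Among all genes tested 38.1% were higher and 34.4% lower. TPT1, a classical TOP mRNA, had FPKM of 110, 103 and 106 with PBS and 162, 166 and 169 with PP (0.64 ± 0.035, SE, adjusted p = 1e-07). EIF4B, an initiation factor, had 160, 155 and 157 with PBS and 220, 224 and 230 with PP (0.51 ± 0.031, SE, adjusted p = 1.91e-07). The lower gene was HNRNPA1, a splicing factor with a TOP start, at 400, 389 and 399 against 298, 294 and 287 (-0.44 ± 0.029, SE, adjusted p = 4.41e-07).

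Of the regulators of these mRNAs and genes, 10 of 19 tested were higher (52.6%) and 5 were lower (26.3%), with a median of 0.17. The shares of all genes tested were 38.1% and 34.4%. MYC had FPKM of 7.05, 5.99 and 6.13 with PBS and 46.9, 51.5 and 49.2 with PP (2.77 ± 0.060, SE, adjusted p = 1.75e-10). The translational repressors downstream of mTOR differed in direction, EIF4EBP1 going from 39.9, 42.7 and 39 to 87.7, 80.4 and 82.5 FPKM (1.03 ± 0.046, SE, adjusted p = 2.26e-08) and EIF4EBP2 from 76.5, 76.5 and 75.8 to 40.8, 42 and 44.5 (-0.83 ± 0.039, SE, adjusted p = 3.12e-08). LARP1 was not called, at 45.5, 46 and 46.6 FPKM with PBS and 46.4, 45.6 and 45.9 with PP (adjusted p = 0.959).

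Genes that build and rescue ribosomes had higher medians than the ribosomal proteins. Of 23 chaperones and subunit maturation factors 16 were higher (69.6%) and 1 was lower (4.35%), with a median log2 fold change of 0.31. Among all genes tested 38.1% were higher and 34.4% lower, with a median of 0.02. SBDS, which frees the large subunit for translation, had FPKM of 61.9, 61.3 and 55.1 with PBS and 108, 111 and 118 with PP (0.91 ± 0.051, SE, adjusted p = 1.15e-07), and PDCD2L, related to a chaperone of RPS2, and RIOK1, a late small subunit kinase, followed at 0.89 and 0.82. Of 13 ribosome quality control genes 10 were higher (76.9%) and none was lower, with a median of 0.34. RACK1, named above among the ribosomal proteins outside the rule, is also counted in this list. GTPBP2, a rescue factor for stalled ribosomes, had 104, 103 and 106 with PBS and 271, 277 and 269 with PP (1.38 ± 0.030, SE, adjusted p = 1.63e-10). Differences between these lists and the ribosomal proteins were not tested.

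The mitochondrial ribosomal proteins, which serve the separate ribosome of that organelle, gave similar counts with a wider range. Of 77 tested 34 were higher (44.2%) and 15 were lower (19.5%), beside 38.1% and 34.4% of all genes. Their median log2 fold change was 0.08. In either direction 7 changed by more than 0.5 where 1 cytosolic member did, and 23.8% of all genes tested did. Their levels were lower, with a median log2(FPKM + 1) of 4.71 in PBS library 1 against 7.93. The median gene's SD between PBS libraries was 4.56% of its mean, against 2.89% for the cytosolic members. The part of level and spread in the wider range was not tested. MRPL27 was the lowest at -0.77 (SE 0.096, 283 to 588 counts per library), and MRPS30 (0.64) and MRPL15 (0.63) were the highest.

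**Figure D4:**
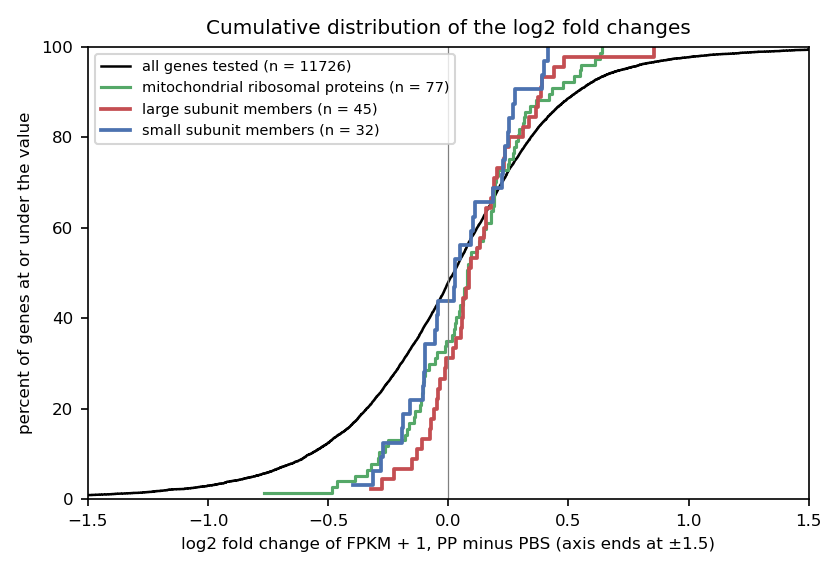
Cumulative distribution of the log2 fold changes (PP minus PBS) of all genes tested, the mitochondrial ribosomal proteins and the members of each subunit. The members' curves are steeper than that of all genes, and the axis ends at ±1.5.

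Libraries of the same treatment also differed in the members, and often in a common direction. Among the 3 PBS libraries, 44 of the 77 members were highest in library 3 (57.1%, against 32.3% of all genes tested). Among the 3 PP libraries, 50 were highest in library 1 and 50 were lowest in library 3 (64.9% each, against 35.4% and 34.7% of all genes). RPS18 shows the size of these differences, with FPKM of 658, 706 and 762 with PBS and 895, 796 and 732 with PP, so that its groups overlapped although it was called higher (0.19 ± 0.070, SE, adjusted p = 0.035, lost under 7 alternatives). Across the 77 members the difference of PBS library 3 from library 1 went with that of PP library 1 from library 3 (Pearson's r = 0.65, Spearman's rho = 0.70), and across all genes tested r was 0.22. These pairs of libraries were picked after the values were seen, and the genes share libraries and depth. The latter difference had an r of 0.16 with the GC content of the transcript over the members and of 0.40 over all genes tested, the former -0.0053 and 0.21, and the part of GC content in the calls was not tested.

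**Figure D5:**
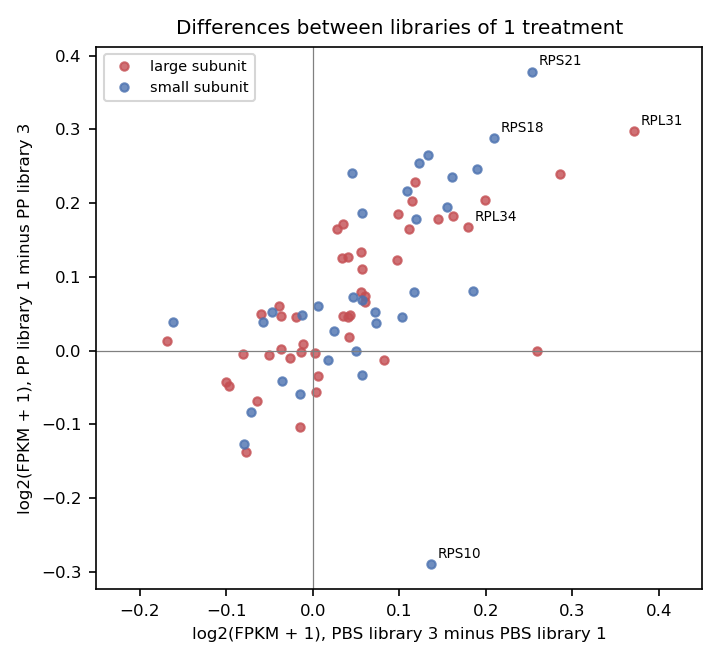
For each tested member, the difference in log2(FPKM + 1) between PBS libraries 3 and 1 (horizontal) and between PP libraries 1 and 3 (vertical), with some members labelled. Most points lie at upper right, and RPS10, with few counts, lies at the bottom.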

How the data were processed

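RNA-seq libraries from NCI-H660 cells (3 given PBS and 3 given PP, made with a stranded mRNA kit) were analysed from the FPKM table that the authors deposited. The labels' processing notes name fastp, HISAT2, HTSeq and GRCh38, whereas the methods name Bowtie, hg19, RSEM, Cufflinks and HTSeq-count and 2 samples per group. Which of these made the FPKM is not given in the sources used here. All 6 labelled libraries were used. The paper's legends call the samples independent and give 3, but neither they nor the labels name separate cultures, so P values measure the spread between these libraries. FPKM values were whole multiples of a step per gene (tolerance 0.01 of a count), from which counts were recovered.

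Genes whose FPKM averaged 1 or more were fitted on log2(FPKM + 1) with limma 3.58.1 in R 4.3.3 (lmFit, eBayes with trend), with Benjamini-Hochberg adjustment over the 11726 genes. A fold change on this scale understates that of low genes. Reading "symbols with L1" in the rule as symbols that end in L1 kept RPL10 to RPL19. Values per library were given for the 5 highest and 5 lowest log2 fold changes and the 3 highest and lowest levels in each subunit, paralog pairs and members of known role, and for the 3 largest changes of other lists. The text names some of these, 3 genes are not reported here, and a few others were chosen after their values were seen. The members and lists were chosen with earlier results of these data known. Overlaps and pseudogenes came from GENCODE on GRCh37, and start sites from RefSeq on GRCh38.p14.

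Libraries of 1 group differed by more than counting noise (chi-square per degree of freedom 3.36 to 6.91, against 144 to 164 between groups). Steps were tested on simulated data. Alternatives varied the pseudocount, filter, scaling, trend, replicate block, libraries and counts (limma-voom), and the length behind the levels, which was added after seeing the data. Figures were drawn with matplotlib 3.10.9.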

Additional observations from a re-analysis of the deposited data

How the results depend on the processing

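Of 703 values of named genes and measures under alternatives, 648 kept their direction and side of the threshold, 37 were weaker, 9 stronger and 8 reversed, and the remaining value is the ratio of levels given last. Small subunit members called lower, 10 as reported, numbered 6 with no filter on low values, 6 with eBayes without trend and 5 when the sum over other genes was set equal, where 26.1, 34.2 and 29.8% of all genes were lower, against 34.4% as reported. That last scaling also left 3 large subunit members lower and moved the medians to 0.15 (large) and 0.091 (small). With recovered counts the members' share differed by 0.19 percentage points, against 0.81 with FPKM. Leaving out each library in turn gave 20 to 25 (higher) and 5 to 8 (lower) in the large subunit, 10 to 12 (higher) and 5 to 12 (lower) in the small subunit, medians of 0.077 to 0.10 and 0.015 to 0.053, and share differences of 0.73 to 0.89 points. The 5 came without PBS replicate 3. In these fits 35.4 to 36.4% of all genes tested were higher and 32.0 to 33.6% lower. The cause of these changes was not tested.

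The reversed values belong to members that were not called: RPL31 (0.0073 without PP replicate 3, in a range from -0.19 without PBS replicate 1), RPL34 (0.052 with the equal sum, 0.050 without PBS replicate 3, and 0.070 without PP replicate 2, in a range from -0.091 without PP replicate 1), RPS10 (-0.032 without PBS replicate 2 and -0.084 without PP replicate 3, in a range up to 0.16 without PP replicate 2), RPS27A (0.022) and RPS29 (0.011), the last 2 with the equal sum. The deviations of same-numbered libraries correlated at -0.21, -0.014 and -0.13 over all genes tested. Over the members they correlated at -0.75, 0.29 and -0.30, and differently numbered libraries at -0.47 to 0.62. Such values cannot show whether same-numbered libraries were handled together. With the replicate block 21 large subunit members were higher and 5 lower, and 11 small subunit members were higher and 8 lower. The shares of all genes were then 36.3% and 33.1%. On the length of the canonical transcript, the 90th percentile of the members' PBS level was 10.6 times the 10th, against 13.8 times on FPKM.

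Depth limits RPS10, which has under 100 counts in each library, and the members under the filter. With 3 libraries a group, a permutation test of a single value cannot go below 0.1.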
